A study of Mus musculus with 228 samples.

Results

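The 83 cytosolic ribosomal protein genes described here were the rows whose gene name was Rpl or Rps followed by a number and at most 1 of the letters a, x, y or l, together with Rplp0, Rplp1, Rplp2 and Rpsa. They were 83 of the 46331 named rows of the count table, 51 of the large ribosomal subunit and 32 of the small subunit. The rule used names only and no measured value, though the members were chosen with earlier results of these data known. The name rule missed 6 genes of the family (among them Fau, Rps3a1, Rpl36al, Rpl22l1 and Rpl7l1), and 226 rows named as ribosomal protein pseudogenes stood outside it.

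The animals were C57BL/6N mice of 10 weeks of age, housed singly, acclimatized for 7 days and then kept for 42 days in 1 of 5 light cycles, with 24 mice per diet and cycle. The cycles are written as hours of light and of dark: LD0/24 (constant darkness), LD8/16, LD12/12, LD16/8 and LD24/0 (constant light). Chow libraries came from 10 tissues, namely liver, hypothalamus, inguinal white fat, the epithelium of ileum, jejunum, cecum and colon, spleen, mammary gland and thymus, and libraries of liver, hypothalamus and colon also came from mice given a cocktail of broad-spectrum antibiotics in the drinking water with the same feed. Each group held 6 libraries in liver and 3 in every other tissue, and 225 of the 228 libraries were used, because 3 cecum columns, 1 each labelled LD0/24, LD8/16 and LD16/8, held the same values in every row and all 3 were left out. Nothing in the labels says that the libraries of a group came from different mice, so the p-values measure the spread between libraries, which may be technical.

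Ribosomal proteins are the protein part of the ribosome: those of the small subunit shape the channel in which the mRNA is decoded, and those of the large subunit surround the site of peptide bond formation and the tunnel through which the new protein leaves. Their mRNAs are among the most abundant of a dividing or secreting cell. Most start with a C followed by a run of pyrimidines, the 5′ terminal oligopyrimidine (5′TOP) motif, through which growth signalling by mTORC1 and the La-related protein Larp1 sets how strongly they are translated, a step that RNA-seq does not measure.

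The sequence around the start site was looked up because this motif is what the members are known to share. A 30-base window, beginning 15 bases before the annotated start, was taken from RefSeq on GRCm38.p6, a different build from the GRCm39 of the count table, for 61 members with 73 windows. The following members fell in liver on antibiotics in the comparison further down, Rpl38 only with libraries of doubtful quality included. Capitals mark the longest pyrimidine run within 20 bases of the start, as far as it lies in the window.
Rpl28, chr7:4792950-4792979, plus strand: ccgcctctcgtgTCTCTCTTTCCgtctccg
Rpl12, chr2:32961697-32961726, plus strand: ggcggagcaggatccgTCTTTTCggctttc
Rpl18, chr7:45718056-45718085, plus strand: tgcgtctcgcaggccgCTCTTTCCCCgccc
Rpl15, chr14:18270972-18271001, minus strand: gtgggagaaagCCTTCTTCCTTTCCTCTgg
Rpl38, chr11:114668565-114668594, plus strand: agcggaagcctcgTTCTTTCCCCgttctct

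The next 3 windows belong to small subunit members or to the stalk, the protrusion of the large subunit that recruits the elongation factors: Rps27 and Rps24 rose in colon on antibiotics, and Rplp2 is a stalk protein.
Rps27, chr3:90213634-90213663, minus strand: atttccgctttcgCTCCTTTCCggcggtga
Rps24, chr14:24490663-24490692, plus strand: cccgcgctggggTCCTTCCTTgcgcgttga
Rplp2, chr7:141447636-141447665, plus strand: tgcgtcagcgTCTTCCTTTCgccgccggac

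The last 2 windows had no long run directly at the annotated start: Rpl9 was the member with the largest rise in colon, and Rplp0, the core of the stalk, rose in hypothalamus. The run marked in Rplp0 meets the end of the window, so its full length is not shown and only Rpl9 serves as a contrast.
Rpl9, chr5:65391417-65391446, minus strand: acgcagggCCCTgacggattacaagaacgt
Rplp0, chr5:115559452-115559481, plus strand: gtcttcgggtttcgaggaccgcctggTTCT

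A pyrimidine run of at least 8 bases within 20 bases of the start was present in 31 of the 73 member windows (42.5%) and in 16.0% of all 32851 windows of the same table. A C at the annotated start followed by 4 pyrimidines was present in 14 member windows (19.2%) and in 2.51% of all windows. In the full 300-base windows, read on both strands, GCCATNTT was present in 15 member windows (20.5%) against 6.05% of all, GGGCGG in 42 (57.5%) against 35.7% of all, and TATAAA in 7 (9.59%) against 13.6% of all. These are matches of letters, and several genes have more than 1 annotated start.

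The libraries held between 7200822 and 170140840 counts. The 15 mammary gland libraries were the shallowest, at a median of 36111453 counts, and a median of 86.4% of their counts came from the mitochondrial genome. Marker genes of the labelled tissue were present: the summed hepatocyte markers were 111100 to 222100 CPM (counts scaled to the library's total after TMM adjustment) in chow liver, neuron markers 2363 to 4409 CPM in hypothalamus and thymocyte markers 4573 to 7806 CPM in thymus. The spread was wide in chow colon (colonocyte markers 397 to 17710 CPM) and in mammary gland (mammary epithelium and milk markers 24.4 to 317500 CPM). A group of 14 libraries stood apart by a high mitochondrial share, few detected genes or whole chromosomes without counts. These were 5 chow liver libraries, 1 antibiotics liver library (LD0/24 replicate 1), 2 of ileum, 1 of antibiotics colon, 2 of jejunum, 2 of spleen (both LD12/12) and 1 of mammary gland. The diet results of liver and colon are given with and without these libraries. Counts of members whose groups did not overlap between cycles are given only with them.

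The first question was how much of each tissue's RNA the members made up on chow. Spleen and thymus, the organs of lymphocytes, stood at the top, and liver, jejunum and hypothalamus at the bottom. The summed member counts were 13.0% ± 3.52 of all non-mitochondrial counts in spleen (SD, n = 15), 8.30% ± 0.49 in thymus (n = 15) and 7.84% ± 4.31 in mammary gland (n = 15). Thymus had the narrowest range of these, from 7.08% to 9.11%, whereas mammary gland ran from 2.14% to 16.2% and spleen from 6.68% to 19.1%. Colon stood at 4.94% ± 1.22 (n = 15), ileum at 3.44% ± 1.56, inguinal fat at 3.43% ± 1.06 and cecum at 3.33% ± 0.70. Hypothalamus stood at 2.46% ± 0.61, jejunum at 2.35% ± 0.91 (n = 15 each) and liver at 2.08% ± 0.42 (n = 30). In this order the range of each tissue overlapped with that of the next. In bulk tissue, fewer cells of a type and less RNA per cell cannot be told apart. Pseudogene rows held a further 5.24% to 6.25% of the member counts, by tissue mean, and reads shared between a member and its processed copies make the single members uncertain to that extent.

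**Figure D1:**
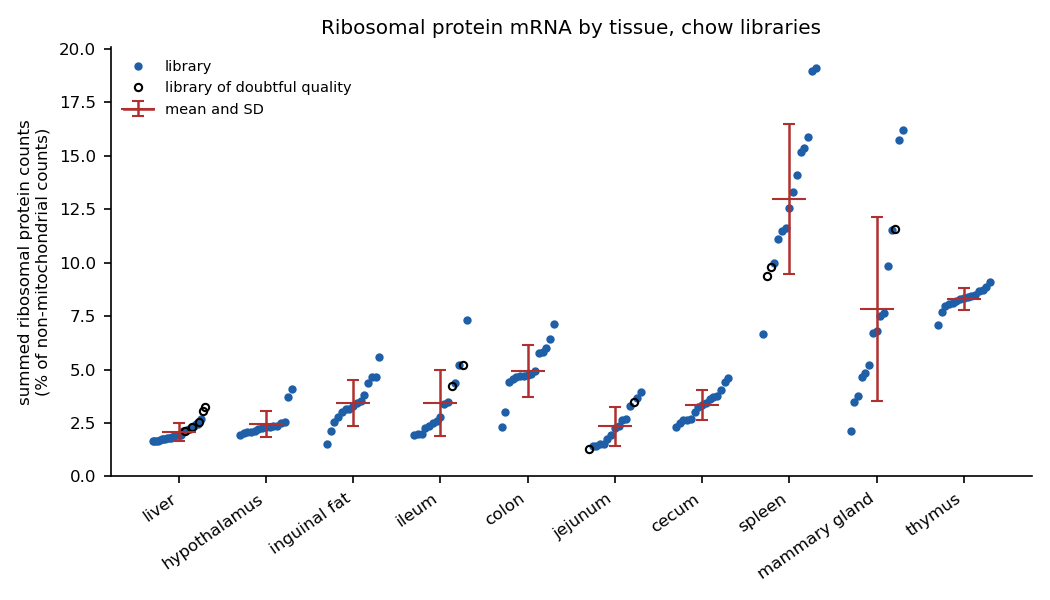
Summed counts of the 83 ribosomal protein genes as a percentage of non-mitochondrial counts (y axis) in the chow libraries of the 10 tissues (x axis). Points are libraries, open points the libraries that stood apart in quality, and bars the mean with its SD; spleen (6.68% to 19.1%) and mammary gland (2.14% to 16.2%) spread widely and thymus (7.08% to 9.11%) does not.

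The balance between the subunits was lowest in spleen and thymus. The summed large subunit counts were 1.31 ± 0.048 times the small subunit counts in spleen (SD, n = 15) and 1.42 ± 0.018 times in thymus (n = 15), and the ratio lay between 1.48 (inguinal fat) and 1.58 (mammary gland) in the other 8 tissues. The ratio sums genes of different coding length, from 75 to 1257 nucleotides, so its absolute size does not count molecules and only its differences can be read. Differences between tissues were not adjusted for library quality. In chow liver the ratio was 1.704 ± 0.098 in the libraries of high mitochondrial share and 1.525 ± 0.031 in the others (SD).

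Each tissue was then compared with the mean of the other 9 over the 165 chow libraries, with edgeR's quasi-likelihood test and Benjamini-Hochberg adjustment over all genes. The labels do not say whether different tissues came from the same mice, and this fit treated all libraries as independent. In spleen 79 of 82 members tested were higher and 2 lower at an adjusted p below 0.05, against 31.2% of all genes higher and 8.88% lower. In thymus 72 were higher and 1 lower, against 36.2% and 9.1% of all genes. Hypothalamus showed the reverse, with 2 members higher and 78 lower, against 41.7% and 11.6% of all genes, and jejunum followed with 2 higher and 69 lower against 29.3% and 6.4%. The median log2 difference of the members was 1.37 in spleen (1.31 for the large and 1.52 for the small subunit), 0.65 in thymus, -0.55 in jejunum and -1.29 in hypothalamus, where the median over all genes was 0.16, 0.14, -0.01 and 0.32.

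In inguinal fat 2 members were higher and 50 lower (all genes 26.3% and 4.81%), and in ileum 3 were higher and 38 lower (28.9% and 4.31%). In liver 26 were higher and 14 lower (31.5% and 8%), in colon 4 and 16 (25.3% and 5.16%), and in cecum 10 and 4 (28.9% and 5.49%). The member medians in these last 3 tissues were near 0, at 0.04, -0.10 and 0.01. In mammary gland 61 members were higher and 1 lower, against 5.85% and 35.5% of all genes. There the median of all genes lay at -2.13 and that of the members at 0.40, so the members stood above a background that was itself shifted, in the libraries with the largest mitochondrial share. The mean with which each of the other 9 tissues was compared included mammary gland. In all of these 9 tissues more of all genes were called higher than lower. Their shares of all genes are thus not a balanced baseline, and the part of mammary gland in this was not tested.

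Single members departed from their family, above all the alternative copies. Rps27l, the paralog of Rps27 and in mouse and human a p53 target, made up 0.858% ± 0.179 of the summed member CPM in liver (SD, n = 30), 3.01 times its median over the tissues. Its share was 2.51 times that median in jejunum, 2.00 times in ileum and 1.79 times in cecum, and it fell to 0.308 times in hypothalamus and 0.235 times in spleen. Scaled to non-mitochondrial counts (non-mitochondrial CPM), its level was 148.5 at the median of the liver libraries (116.1 to 342.1) and 19.8 in hypothalamus (16.8 to 31.0), ranges that did not overlap. Against the mean of the other 9 tissues the log2 difference of Rps27l was 1.93 ± 0.09 (SE) in liver and -3.06 ± 0.17 in hypothalamus. Liver and spleen held its highest and its lowest share. Rps27 itself, a zinc finger protein of the small subunit, went the other way in these 2 tissues, with a median of 2361 in spleen (681.1 to 3512) against 175 in liver (119.3 to 266.6). In share it did not oppose Rps27l everywhere. Against its median over tissues of 1.08% it stood at 1.72% in spleen and 0.879% in liver. In ileum (1.38%) and cecum (1.15%) it lay above that median, as Rps27l did, and in mammary gland (0.850%) both lay below.

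Rps4l, an autosomal copy of the X-linked Rps4x, was a minor member everywhere, and its share peaked in jejunum (0.224% of the summed member CPM, 4.63 times its median over tissues) and hypothalamus (0.149%, 3.08 times). In spleen it stood at 0.186 times and in thymus at 0.359 times that median. On the scale of non-mitochondrial CPM its median was 46.0 in jejunum (26.8 to 68.4), 33.9 in hypothalamus (26.9 to 51.6) and 8.29 in spleen (4.65 to 31.7). Its log2 difference from the mean of the other 9 tissues was 1.87 ± 0.19 in jejunum and -1.57 ± 0.25 in spleen, while Rps4x was highest in spleen, at a median of 2226 (1026 to 3398). Jejunum and hypothalamus overlapped for Rps4l, and both lay above the median of spleen.

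The other copies were near the floor. Rpl10l, a testis copy of Rpl10, was listed at 0 in all chow libraries, and Rpl3l, known from heart and skeletal muscle, was at 0 in 21 of 30 liver and 13 of 15 mammary gland libraries. Rpl39l, known from testis, was at 0 in 23 of 30 liver libraries and at a mean of 6.80 in mammary gland, where 8 of 15 libraries were at 0 and the highest reached 34.1. No fold between tissues is drawn from these copies.

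Among the ubiquitous members, hypothalamus had the most unusual mixture. Rpl3, which reaches towards the peptidyl transferase centre, made up 3.61% ± 0.398 of the summed member CPM there (SD, n = 15), 2.57 times its median over tissues. Rplp0, which anchors the stalk, made up 1.17%, 0.454 times its median. Its level in hypothalamus was 271.5 non-mitochondrial CPM at the median (235.1 to 373.2), below every library of thymus (1551 to 2285) and of spleen (1944 to 5016). Liver was enriched in Rps2, which lies at the entry of the mRNA channel (3.46%, 1.83 times the median over tissues), and held less of Rplp2 (0.612 times) and Rps24 (0.624 times).

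In spleen the shares of Rps15a (1.67 times the median over tissues) and Rps27 (1.59 times) stood highest, both of the small subunit, and in thymus those of Rpl12, at the base of the stalk (1.56 times), and Rps27a, which is made as a fusion with ubiquitin (1.55 times). Inguinal fat was richest in Rplp2 (1.72 times) and Rps19 (1.55 times), the latter a gene mutated in human Diamond-Blackfan anaemia, and its lowest shares were those of Rps29 (0.754 times) and Rpl37 (0.759 times). In colon Rpl28 (1.47 times) and Rpl14 (1.40 times) stood highest and Rps4x (0.708 times) and Rpl9 (0.717 times) lowest. In cecum Rpl41, the shortest of the proteins, stood at 1.37 times and Rps6, the phosphorylation target of the S6 kinases, at 0.775 times. In mammary gland Rps28 (1.39 times) and Rpl10 (1.38 times) stood highest and Rps27a lowest (0.585 times). The remaining lowest shares were those of Rps2 (0.698 times) and Rpl14 (0.770 times) in ileum and of Rpl11 (0.799 times) and Rpl31 (0.826 times) in jejunum.

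**Figure D2:**
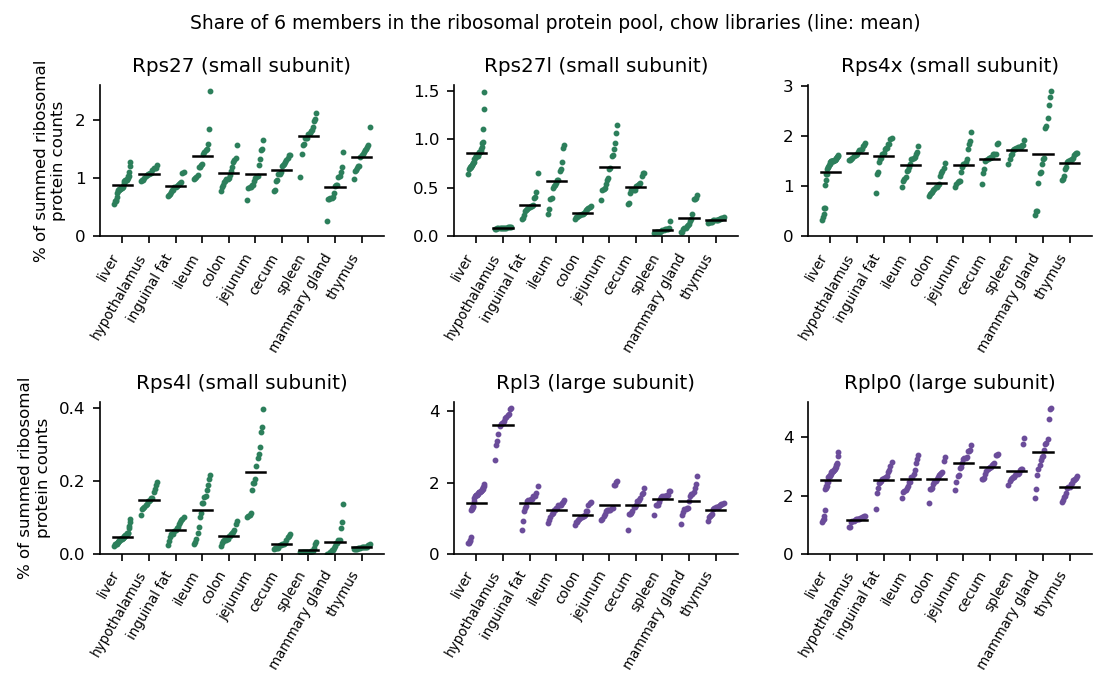
Share of 6 members in the summed ribosomal protein CPM (y axes, %) by tissue (x axes) in the chow libraries; points are libraries and lines the tissue means. Rps27l stands highest in liver (0.858%) and lowest in spleen and hypothalamus, Rps4l highest in jejunum (0.224%), Rpl3 highest (3.61%) and Rplp0 lowest (1.17%) in hypothalamus.

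The light cycle was the main factor of the design, and the next question was whether the members differed between the 5 cycles. On chow no member passed edgeR's quasi-likelihood F test over the cycles (Benjamini-Hochberg adjusted p below 0.05) in any of the 10 tissues. Of all genes 0.248% passed in liver, 0.119% in spleen, 0.0215% in mammary gland and 0 in the other 7. At an unadjusted p below 0.05 the members numbered 57 in spleen, 16 in colon, 15 in mammary gland, 9 in cecum, 8 in thymus, 7 in inguinal fat, 3 in liver, 2 in jejunum, 1 in hypothalamus and 0 in ileum, against 13.4%, 2.96%, 7.13%, 6.49%, 5.41%, 9.17%, 8.14%, 6.02%, 4.24% and 1.94% of all genes. On antibiotics no member passed either, against 0.00527% of all genes in liver, 0.0163% in hypothalamus and 0.0211% in colon, and at an unadjusted p below 0.05 there were 0 members in liver, 0 in hypothalamus and 7 in colon, against 1.7%, 2.47% and 7.78%. No member was called by edgeR in any contrast of a cycle with LD12/12, where the share of all genes called reached 0.0358% in mammary gland (LD16/8; 0.00717% in LD0/24) and 0.0287% in inguinal fat (LD0/24; 0.00478% in each of the others). DESeq2 on the same counts called 31 members over the cycles in spleen (10.6% of all genes), 2 in chow liver (2.25%) and 1 in antibiotics colon (0.839%).

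Spleen came closest to the threshold. In constant darkness 72 of 81 members had all 3 libraries above all 3 LD12/12 libraries, against 19.5% of all genes. Rpl9, a protein near the base of the stalk, stood at 2204, 2301 and 1861 CPM in LD0/24 and at 1271, 1044 and 993.5 CPM in LD12/12, and Rps9, at the entry of the mRNA channel, at 3901, 3956 and 3186 against 2072, 1559 and 1519 CPM. Rplp2 stood at 2862, 2488 and 1751 CPM against 1219, 959 and 871 CPM. For all 3 genes the groups did not overlap.

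The log2 difference of LD0/24 from LD12/12 was 0.94 ± 0.18 (SE) for Rpl9 and 1.13 ± 0.24 for Rpsa, which is also known as a laminin receptor. Of the 81 members, 71 were higher at an unadjusted p below 0.05, against 9.82% of all genes, and the median log2 difference was 0.91. The lowest adjusted p in that contrast was 0.0543, by edgeR's quasi-likelihood test, whereas DESeq2 called 60 members in it (15.9% of all genes). The summed member CPM was 163500 ± 23580 in LD0/24, 119900 ± 21050 in LD8/16, 86760 ± 14470 in LD12/12, 92730 ± 22780 in LD16/8 and 101000 ± 21430 in LD24/0 (SD, n = 3 each). The LD12/12 libraries themselves stood apart: replicates 2 and 3 held 55.2% and 50.9% mitochondrial counts. With LD12/12 replicate 1 left out 53 members were called over the cycles (35.8% of all genes), and with LD8/16 replicate 2 left out 6 were called between LD0/24 and LD12/12 (0.939% of all genes). Leaving out both LD12/12 libraries of high mitochondrial share leaves only replicate 1 in that group, so calls cannot be read there. Replicate 1 held 1271 CPM of Rpl9, 2072 CPM of Rps9 and 1219 CPM of Rplp2, each below all 3 LD0/24 libraries.

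Cell type markers moved with this difference. The summed B cell markers were 1104, 1299 and 6392 CPM in LD12/12 (lowest to highest) and 7307 to 7701 CPM in LD0/24, the T cell markers 84.6 to 697 against 811 to 851 CPM, and the red blood cell markers 14290 to 88570 against 7195 to 17930 CPM. The translation factors whose mRNAs also carry a 5′TOP motif summed to 22360 to 26370 CPM in LD12/12 and to 30060 to 35150 CPM in LD0/24, and the ribosome assembly factors to 2384 to 3672 against 3560 to 4077 CPM. The part of the cell mixture in the spleen difference was not tested.

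**Figure D3:**
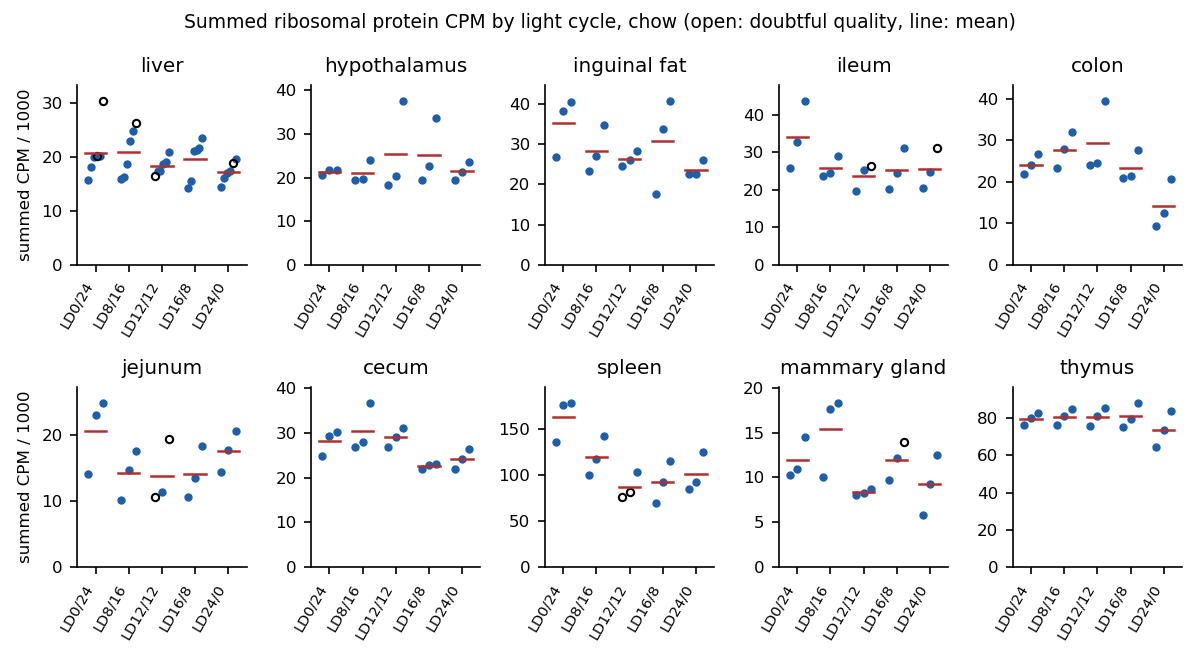
Summed CPM of the 83 genes divided by 1000 (y axes) by light cycle (x axes) in the chow libraries of each tissue; points are libraries, open points those that stood apart in quality, and lines the group means. In spleen the mean falls from 163500 CPM in LD0/24 to 86760 CPM in LD12/12, and in colon the lowest mean is that of LD24/0 (14240 CPM).

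In colon the members were lowest in constant light. Of 81 members, 57 had all 3 LD24/0 libraries below all 3 LD12/12 libraries, against 14.7% of all genes, and 65 were lower at an unadjusted p below 0.05, against 3.24% of all genes. Rps28, a small subunit protein at the mRNA exit, stood at 55.0, 44.8 and 95.8 CPM in LD24/0 and at 179.6, 320.2 and 160 CPM in LD12/12, and Rplp2 at 124.4, 89.7 and 195.7 against 353, 531.7 and 379.1 CPM. Neither gene's groups overlapped, and the same held for Rps27a (113, 42.4 and 79.7 against 195.3, 388.9 and 196.8 CPM). The log2 differences were -1.75 ± 0.41, -1.62 ± 0.42 and -1.73 ± 0.44 (SE), the member median was -1.04, and the lowest adjusted p was 0.390 (edgeR's quasi-likelihood test; DESeq2 called 1 member and 1.19% of all genes). In antibiotics colon the low group was another one: in LD0/24, 38 of 81 members were lower than in LD12/12 and 1 higher at an unadjusted p below 0.05 (5.08% of all genes lower), with a median of -0.82 and a lowest adjusted p of 0.612 by edgeR (DESeq2 called 3 members and 1.58% of all genes).

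In the chow colon the colonocyte markers summed to 9320 to 17710 CPM in LD12/12 and 4078 to 5935 CPM in LD24/0, and the smooth muscle markers to 261 to 4399 against 6268 to 13480 CPM. The 5′TOP translation factors stood at 6858 to 10170 against 3505 to 6191 CPM, and the assembly factors overlapped (914.5 to 1120 against 808.6 to 1029 CPM). The part of these markers' cells in the colon difference was not tested.

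In cecum 61 of 81 members had all LD16/8 libraries below all LD12/12 libraries, against 14.2% of all genes, while only 16 were lower at an unadjusted p below 0.05, against 7.33% of all genes, with a median of -0.36. Rps13, a small subunit protein with a role in joining the subunits, stood at 162.4, 156.4 and 170.4 CPM in LD16/8 and at 225.5, 245.1 and 195.3 CPM in LD12/12. The summed member CPM was 22610 ± 589 in LD16/8 and 29050 ± 2128 in LD12/12 (SD, n = 3 each). The groups did not overlap, and the lowest adjusted p in this contrast was 0.355 (edgeR's quasi-likelihood test; DESeq2 called 1 member and 2.8% of all genes). In LD24/0, 34 members lay below all LD12/12 libraries, against 3.21% of all genes. Cell type markers moved with the LD16/8 difference: the colonocyte markers summed to 49660 to 67660 CPM in LD16/8 and 23740 to 45660 CPM in LD12/12, the crypt and cycling cell markers to 131.2 to 173.2 against 187.4 to 334.2 CPM, and the B cell markers to 3.69 to 9.70 against 26.9 to 733 CPM. The 5′TOP translation factors stood at 7316 to 7924 against 8375 to 9126 CPM. The part of these cells in the cecum difference was not tested.

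In mammary gland 40 of 80 members had all LD8/16 libraries above all LD12/12 libraries, against 5.66% of all genes, 31 did so in LD0/24, against 8.5%, and 31 in LD16/8, against 3.01%. Rpsa stood at 449.5, 461.4 and 436 CPM in LD0/24 and at 189.5, 169.3 and 192 CPM in LD12/12. The summed member CPM was 15340 ± 4577 in LD8/16 and 8311 ± 377 in LD12/12 (SD, n = 3 each), and edgeR's lowest adjusted p for the members over the cycles was 0.692. With limma-voom 33 members were called over the cycles (5.29% of all genes) and 21 between LD8/16 and LD12/12 (1.69%). The mammary epithelium and milk markers summed to 24.4, 26.9 and 14050 CPM in LD8/16 (lowest to highest) and 13760 to 26000 CPM in LD12/12, and to 8253 to 91000 CPM in LD0/24 and 8812 to 14130 CPM in LD16/8. The skeletal muscle markers stood at 2.92 to 49.8 CPM in LD8/16 against 0 to 3.70 CPM in LD12/12, and the adipocyte and B cell markers of these 2 groups overlapped. The adipocyte markers stood at 132.3 to 193.6 CPM in LD0/24 against 194.4 to 373.7 CPM in LD12/12. The part of the cell mixture in the mammary gland differences was not tested.

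The other tissues showed less. In inguinal fat 26 of 82 members had all LD0/24 libraries above all LD12/12 libraries, against 8.75% of all genes: Rpl17, near the exit of the protein tunnel, stood at 781, 547.3 and 839 CPM against 411.4, 358.5 and 389.1 CPM. There 12 members lay below all LD12/12 libraries in LD24/0, against 7.01% of all genes. In ileum 27 of 82 had all LD0/24 libraries above those of LD12/12, against 4.25% of all genes. In thymus 14 of 82 had all LD24/0 libraries below those of LD12/12, against 3.86%. Rpl41 in thymus stood at 1019, 1138 and 1095 CPM in LD24/0 and at 1660, 1225 and 1395 CPM in LD12/12. In jejunum Rps27 stood at 254.8, 239.3 and 238 CPM in LD24/0 and 198.1, 107.4 and 94.65 CPM in LD12/12, where 2 of the 3 libraries stood apart in quality.

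In liver, with 6 libraries a group, and in hypothalamus no member separated any cycle from LD12/12; up to 0.0738% and 5.4% of all genes did in 1 direction. Rps4l had the lowest p over the cycles in chow liver, at 5.56 to 16.2 CPM in LD24/0 and 4.50 to 9.94 CPM in LD12/12, which overlapped, with an adjusted p of 0.456 by edgeR's quasi-likelihood test. The members with the lowest p elsewhere were Rpl32l, Rps9 and Rps12 in hypothalamus, Rpl6l, Rpl3l and Rps27a in ileum, Rps29 and Rps4x in jejunum, Rps21 and Rpl41 in cecum, Rps24 and Rplp1 in mammary gland, and Rps21 and Rps27 in thymus, all with an adjusted p of 0.67 or more. In inguinal fat Rps4l and Rpl36a followed Rpl17, and in liver Rps16 and Rps23 followed Rps4l. On antibiotics the lowest p belonged to Rps4l, Rps27 and Rps12 in liver, to Rpl15, Rps15a and Rpl32l in hypothalamus, and to Rps27a, Rps27 and Rpl21 in colon, none of them called.

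The third question was whether the members differed between antibiotics and chow, with the 5 cycles averaged. The members called were lower on antibiotics in liver, and higher in hypothalamus and colon. In liver 26 of 80 members tested fell and 0 rose at an adjusted p below 0.05, against 17% of all genes lower and 12.3% higher, and 66 of the 80 lay below 0. The median log2 difference was -0.16, against -0.01 over all genes. The large subunit gave 20 calls of 48 (median -0.19) and the small subunit 6 of 32 (median -0.15).

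Rpl28 stood at a median of 251.4 CPM on chow (163.5 to 885.9) and 199.1 CPM on antibiotics (156.1 to 276.7). Its log2 difference was -0.68 ± 0.15 (SE; edgeR's quasi-likelihood test, Benjamini-Hochberg adjusted p = 0.000332), and all 30 antibiotics libraries lay below the chow mean of their cycle. The ranges nonetheless overlapped, since the chow range was stretched upwards by a few libraries. Rpl21 had the largest difference, -0.90 ± 0.23 (edgeR adjusted p = 0.00174), yet its medians were close, at 75.7 CPM (53.69 to 607.2) and 72.2 CPM (54.39 to 107.6). Rpl38, which in mouse embryos is needed for translation of Hox mRNAs, stood at a median of 139.1 CPM (92.41 to 516) against 121 CPM (92.29 to 182.2), Rpl35, at the tunnel exit, at 173.2 CPM (119 to 590.7) against 149.3 CPM (117.8 to 212), and Rpl26, its neighbour there, at 226.2 CPM (160.5 to 651.1) against 193.9 CPM (152.8 to 266.7). All of these ranges overlapped widely, and the log2 differences were -0.56 ± 0.15, -0.52 ± 0.13 and -0.42 ± 0.11.

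Rpl12 and Rplp1, both proteins of the stalk region, fell with less spread. Rpl12 had a median of 178.1 CPM on chow (134.6 to 428.8) and 147 CPM on antibiotics (97.12 to 195.7), with 8 antibiotics libraries below every chow library and a log2 difference of -0.37 ± 0.09 (edgeR adjusted p = 0.00082). Rplp1 had a median of 461.3 CPM (310.8 to 761.9) against 397.5 CPM (293.3 to 550.7), a log2 difference of -0.29 ± 0.07 (edgeR adjusted p = 0.00102) and 27 of 30 antibiotics libraries below the chow mean of their cycle. Among the other 19 members that fell were Rps15, Rpl31, Rpl14, Rpl27, Rpl29, Rpl19, Rpl13a, Rps24, Rpl13, Rpl32, Rpl7a, Rpl27a, Rps7, Rpl18 and Rpl15. Rplp0 (-0.14 ± 0.08, edgeR adjusted p = 0.219), Rpsa (-0.19 ± 0.07, 0.0513), Rps6 (-0.15 ± 0.07, 0.087) and Rps27l (-0.21 ± 0.09, 0.0577) did not pass.

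The 5 chow liver libraries that stood apart bear on these values. They held 30.4% to 62.6% mitochondrial counts, against 2.96% to 7.23% in the other 25 chow libraries, and they were LD0/24 replicates 1 and 4, LD8/16 replicate 3, LD12/12 replicate 2 and LD24/0 replicate 5. In them 10 members lay above every other chow liver library, among them Rpl21 (435.4 to 607.2 against 53.69 to 126.3 CPM, a ratio of means of 6.18) and Rpl28 (708.9 to 885.9 against 163.5 to 377.2 CPM, 3.25). Another 10 lay below, among them Rpl3 (51.27 to 124 against 265.4 to 361 CPM, 0.277) and Rpl9 (0.314), and 63 overlapped. The large to small subunit ratio was 1.704 ± 0.098 in the 5 libraries (SD) and 1.525 ± 0.031 in the 25, with no overlap.

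Without the libraries that stood apart, 21 of 80 members were called in liver, all of them lower on antibiotics. This was a smaller share than the 36% of all genes called in either direction. That 36% is not split by direction, unlike the shares of all genes given for the fit with all libraries. Of the 21, 11 were among the 26, including Rpl12, Rpl13, Rpl15, Rpl18, Rpl28, Rpl32, Rpl7a, Rplp1, Rps15 and Rps7. Rplp1 kept its difference (-0.26 ± 0.06, edgeR adjusted p = 0.000512), Rpl12 had -0.20 ± 0.07 and Rpl28 -0.21 ± 0.07. Rpl21 stood at -0.01 ± 0.08, Rpl38 at -0.09 and Rpl35 at -0.12, none of them called. New calls were Rpl10a, Rpl17, Rpl3, Rpl4, Rpl6, Rplp0, Rps13, Rps14, Rps2 and Rps6, of which Rplp0 was 518.9 ± 81.8 CPM on chow (SD, n = 25) and 436 ± 39.7 CPM on antibiotics (n = 29), a log2 difference of -0.24 ± 0.05. The member median was then -0.10, and the calls were 14 of 48 in the large subunit and 7 of 32 in the small subunit (medians -0.10 and -0.096).

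Within single cycles, all 16 calls in liver fell in LD0/24, against 7.75% of all genes lower there, and the member median was -0.35. Rpl28 had a log2 difference of -1.15 ± 0.33 in that cycle (edgeR adjusted p = 0.015). Replicates 1 and 4 of that chow group were among the libraries that stood apart. Without all libraries that stood apart 3 of 81 members were called in LD0/24 (Rpl10a, Rplp0 and Rplp1, all lower). This was a smaller share than the 19.4% of all genes called in either direction. That 19.4% is not split by direction, unlike the 7.75% lower with all libraries. Rpl28 then stood at -0.25 ± 0.17 (edgeR adjusted p = 0.34). Leaving out only chow replicate 1 gave 0 members (10.3% of all genes called in either direction), chow replicate 4 gave 3 (11.2%) and chow replicate 3 gave 28 (17%). Leaving out antibiotics replicate 3, 4 or 6 gave 10, 7 and 6 (10.7%, 10.9% and 11.9% in either direction). In the other 4 cycles 0 members were called, with lowest adjusted p values of 0.156 (LD8/16), 0.384 (LD12/12), 0.316 (LD16/8) and 0.537 (LD24/0), against 1.94%, 1.44%, 2.07% and 0.912% of all genes called. At an unadjusted p below 0.05 there were 15, 0, 2 and 0 members, against 14.3%, 13.1%, 11.6% and 9.39% of all genes. The antibiotics group of LD0/24 held the library with no counts on chromosomes 18, 19 and X; 11 members with counts in the other liver libraries stood at 0 there, 4 on X, 2 on chromosome 18 and 5 on chromosome 17, none of them among the 26. For no member did the cycle effect pass a test of its difference between the diets (edgeR interaction test, 0 called of all genes in liver, hypothalamus and colon). At an unadjusted p below 0.05 there were 0, 0 and 8 members, against 4.92%, 3.75% and 4.45% of all genes.

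**Figure D4:**
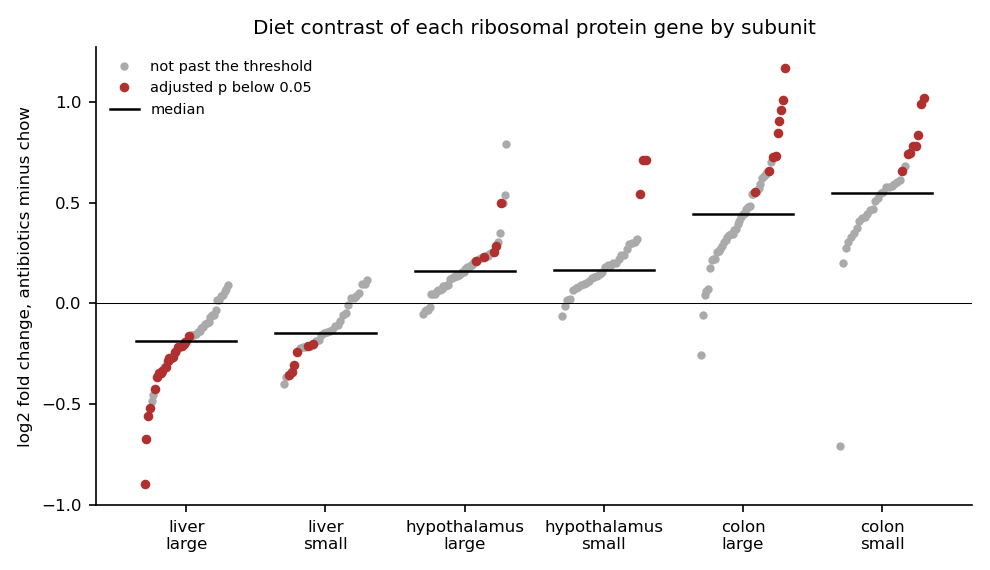
Log2 difference between antibiotics and chow, averaged over the 5 cycles (y axis), of each member tested in liver, hypothalamus and colon, split by subunit (x axis). Red points passed an adjusted p of 0.05, grey points did not, and lines are medians; the medians lie below 0 in liver (-0.19 and -0.15) and above 0 in hypothalamus and colon.

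Of the wider pathway in liver, 6 of 40 ribosome assembly factors were called (5 lower, among them Nop56 and Noc2l, and Ncl higher), 2 of 12 rRNA transcription factors (Polr1a and Polr1b, both lower), 7 of 19 5′TOP translation factors (6 lower, with Tpt1 and Eef1d first, and Nap1l1 higher) and 9 of 19 regulators of mTORC1 and MYC (6 lower, with Myc and Mycl first, and 3 higher, with Larp4 and Mlst8 first), against 17% of all genes lower and 12.3% higher. The 6 neutrophil and the 6 red blood cell markers were all lower on antibiotics, with median log2 differences of -4.15 and -1.60, as were 4 of the 6 called crypt and cycling cell markers. The summed hepatocyte markers stood at 128400 to 218300 CPM on chow and 106300 to 131100 CPM on antibiotics in LD0/24, and by cycle their means ran from 153100 to 187100 CPM on chow and from 121200 to 134500 CPM on antibiotics. Of the 7 hepatocyte markers Cyp2e1 and Fgb were higher, Alb was lower and 4 were not called. Their part in the fall of the members was not tested.

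In hypothalamus 8 of 82 members rose and 0 fell, against 5.36% of all genes higher and 7.94% lower. The median log2 difference was 0.16, against 0.02 over all genes, and 75 of the 82 lay above 0. The large subunit gave 5 calls of 50 and the small subunit 3 of 32, with medians of 0.16 and 0.17. Rplp0 had a median of 247.7 CPM on chow (220.5 to 344.7) and 308.7 CPM on antibiotics (270.8 to 340.1), a log2 difference of 0.23 ± 0.05 (SE; edgeR adjusted p = 0.00653), and all 15 antibiotics libraries lay above the chow mean of their cycle. The ranges overlapped through the upper chow libraries.

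Rps28 and Rps29, short proteins of the small subunit head, rose most. Rps28 had a median of 60.95 CPM on chow (38.52 to 149.3) and 112.3 CPM on antibiotics (52.2 to 147.8), and Rps29 one of 101.9 CPM (63.08 to 267.1) against 205.8 CPM (64.02 to 265.1). Both ranges overlapped throughout, and the log2 differences were 0.72 ± 0.17 and 0.71 ± 0.19 (edgeR adjusted p = 0.00792 and 0.0191). The other calls were Rps21 (0.54 ± 0.15), Rpl37, a zinc-binding protein of the large subunit (0.50 ± 0.13), Rpl19 (0.28 ± 0.08), Rpl18 (0.26 ± 0.08) and Rpl3 (0.21 ± 0.05). Rpl3, already the over-represented member of this tissue, stood at 808.8 ± 88.7 CPM on chow and 934.2 ± 68.8 CPM on antibiotics (SD, n = 15 each). Among the members not called, Rpl38 stood at 0.54 ± 0.18 (edgeR adjusted p = 0.053), Rplp2 at 0.25 ± 0.10 (0.0982), Rpsa at 0.15 ± 0.09 (0.313) and Rps6 at 0.08 ± 0.06 (0.409).

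Chow libraries LD12/12 replicate 3 (4.07% members, 18.9% mitochondrial counts) and LD16/8 replicate 1 (3.74%, 13.7%) set the top of most of these chow ranges. Without the first, 46 members were called higher (22.3% of all genes called in either direction), and without the second 30 (19.5%); all 8 genes were called under every left-out library. Within single cycles 0 members were called by edgeR, against 0.00407% (LD0/24) to 0.0326% (LD24/0) of all genes, and DESeq2 called 1 (LD24/0, 3.08% of all genes). Of the wider pathway, 13 of 40 assembly factors were called (11 lower, with Nop58 and Tcof1 first, and Eif6 and Mak16 higher), 3 of 19 5′TOP translation factors were higher and 9 of 20 other initiation factors were called, 7 of them lower, against 5.36% of all genes higher and 7.94% lower. The 6 neutrophil markers were all lower, and so were 4 of 6 red blood cell markers. Their part in the rise of the members was not tested.

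In colon 17 of 81 members rose and 0 fell, against 1.14% of all genes higher and 2.07% lower. The median log2 difference was 0.48, against -0.02 over all genes, and 78 of the 81 lay above 0. The large subunit gave 9 calls of 49 (median 0.44) and the small subunit 8 of 32 (median 0.55). Rpl9 had a median of 212.1 CPM on chow (78.45 to 323) and 469.6 CPM on antibiotics (199.3 to 906.1). In 10 of the 15 antibiotics libraries it lay above every chow library, and its log2 difference was 1.17 ± 0.21 (SE; edgeR adjusted p = 0.00188).

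Rps27 had a median of 249 CPM on chow (73.97 to 471.7) and 604.8 CPM on antibiotics (164.8 to 1066), with 9 antibiotics libraries above every chow library, and a log2 difference of 1.02 ± 0.21 (edgeR adjusted p = 0.00513). Rps21, a small protein of the small subunit, went from 190.6 CPM (52 to 391.4) to 419.6 CPM (185.9 to 638), with 8 libraries above every chow library and a log2 difference of 0.99 ± 0.19 (edgeR adjusted p = 0.00304). The remaining antibiotics libraries lay within the chow range for all 3 genes. Rpl32 (1.01 ± 0.25), Rpl34 (0.96 ± 0.20) and Rpl39, which lines the exit tunnel (0.91 ± 0.19), completed the 6 largest rises. The others were Rps24 (0.84 ± 0.18), Rpl41, Rps15a, Rps19, Rps14, Rps18, Rpl36, Rpl13a, Rpl37a, Rps29 and Rpl22.

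Several members of known special role did not pass in colon. Rplp0 stood at 617.9 ± 237.8 CPM on chow and 1014 ± 575.6 CPM on antibiotics (SD, n = 15 each; log2 difference 0.73 ± 0.21, edgeR adjusted p = 0.0561), and Rps27l at 58.75 ± 22.11 against 91.06 ± 31.49 CPM (0.69 ± 0.20, 0.0506). Rpsa stood at 0.33 ± 0.16 (0.339), Rps6 at 0.37 ± 0.15 (0.241) and Rps4x at 0.59 ± 0.21 (0.14) on the log2 scale. Rps4l stood on the other side of 0, at 11.83 ± 5.59 CPM on chow and 7.13 ± 2.60 CPM on antibiotics (log2 difference -0.71 ± 0.29, edgeR adjusted p = 0.222).

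The colon rise was uneven over the cycles. No member was called within a cycle by edgeR, against 0.00843% of all genes in LD12/12, while DESeq2 called 16 members in LD24/0 (1.31% of all genes). In LD24/0, the cycle in which the chow libraries were low, 69 of 81 were higher at an unadjusted p below 0.05, against 3.5% of all genes, with a median log2 difference of 1.21, and in LD0/24 the median was -0.17. The summed member CPM of the antibiotics groups was 21840 ± 6295 in LD0/24, 40500 ± 22480 in LD8/16, 39140 ± 5811 in LD12/12, 34200 ± 7154 in LD16/8 and 33830 ± 10060 in LD24/0 (SD, n = 3 each). The same groups on chow stood at 24190 ± 2398, 27720 ± 4374, 29400 ± 8802, 23390 ± 3761 and 14240 ± 5911.

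The rise in colon depended on single libraries and on the tool. Between 8 and 36 members were called when each library was left out in turn, 36 of them without antibiotics LD8/16 replicate 2 (4.3% of all genes called in either direction). DESeq2 called 37 higher and 1 lower (7.26%), and limma-voom called 9 higher (4.44%). Without the shallow library that stood apart (antibiotics LD8/16 replicate 1, 8919740 counts) 16 members were higher and Rps4l lower (5.55% of all genes called), and 14 of the higher ones were among the 17. None of the 40 assembly factors, 12 rRNA transcription factors, 19 5′TOP translation factors, 20 other initiation factors and 19 regulators of mTORC1 and MYC was called. Of the 5 colonocyte markers Aqp8 and Slc26a3 were higher and Car1 and Cdx2 lower, and their sum ran from 397 to 17710 CPM on chow (median 7710) and from 162.8 to 10590 CPM on antibiotics (median 1347); their part in the rise was not tested.

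**Figure D5:**
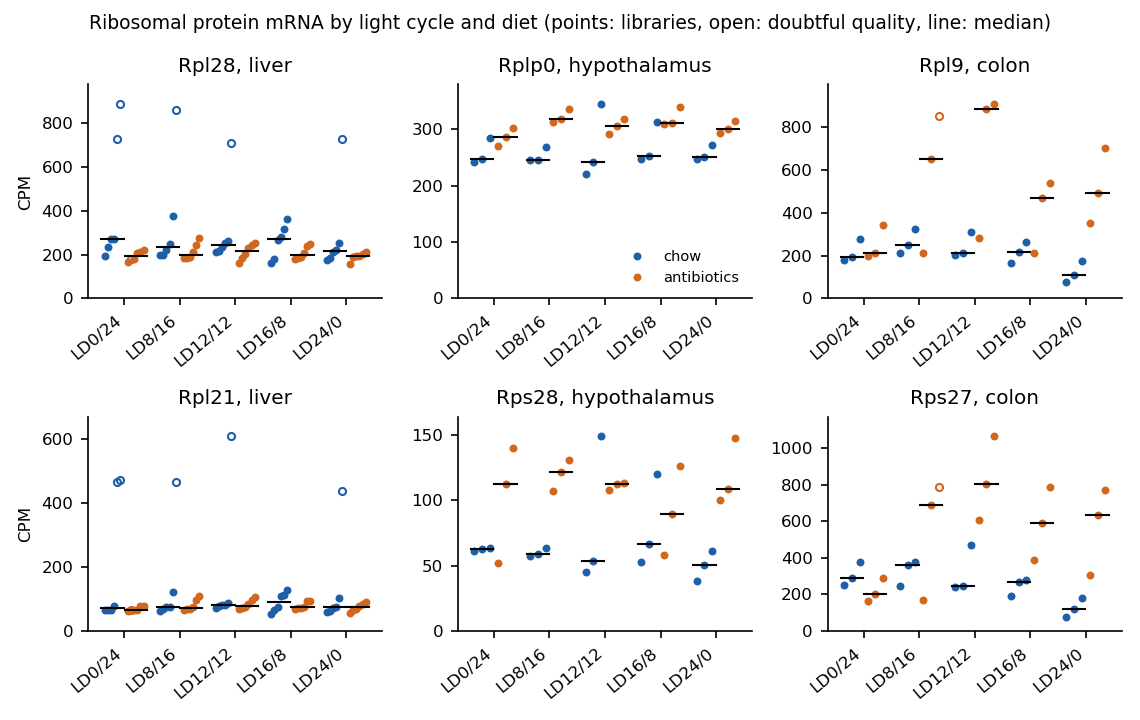
CPM (y axes) of 2 members each in liver, hypothalamus and colon by light cycle (x axes) and diet; points are libraries, open points those that stood apart in quality, and lines the group medians. In liver single chow libraries reach 885.9 CPM for Rpl28 and 607.2 CPM for Rpl21, and in colon the antibiotics libraries reach 906.1 CPM for Rpl9 and 1066 CPM for Rps27.

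The genes called differed between the tissues. Liver and hypothalamus shared Rpl18 and Rpl19 (7.69% of the liver calls and 25% of those in hypothalamus), which fell in liver and rose in hypothalamus. Liver and colon shared Rpl13a, Rpl32 and Rps24 (11.5% and 17.6%), also in opposite directions. Of these 5 genes Rpl19, Rpl13a and Rps24 were not called in liver without the libraries that stood apart (log2 differences of -0.10, -0.11 and -0.13; edgeR adjusted p = 0.223, 0.192 and 0.0851). Hypothalamus and colon shared Rps21 and Rps29 (25% and 11.8%), which rose in both. The difference between the tissues' diet effects was not tested.

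In colon shorter members had larger differences. In 3 classes of coding length (75 to 399, 405 to 564 and 576 to 1257 nucleotides) the median log2 differences were 0.60, 0.47 and 0.42, with 11, 4 and 2 calls, and over the 78 members with a length Pearson's r was -0.39 and Spearman's rho -0.33, given as a description since the members share the libraries. In liver the medians of the same classes were -0.17, -0.24 and -0.14 and in hypothalamus 0.20, 0.14 and 0.18.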

How the data were processed

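Per the labels' protocols, TRIzol was used to extract total RNA and a SMARTER kit for mRNA-Seq to build the libraries. The authors deposited 1 table of 46333 rows and 228 libraries with HISAT2 2.1.0, SAMtools 1.10, StringTie 2.2.1 and GRCm39 named in the submitters' processing notes. Its values were read as estimated counts (expected counts) per gene made by the authors, whole numbers that are not normalized; how they were derived is not given in the sources used here, nor is strandedness. Values of 4 were in surplus (146169 cells, against 86362 of 3 and 66707 of 5), so each fit was repeated on values divided by 4. Rows without a name (2) held at most 0.114% of a library, and 3 cecum columns identical to each other were left out.

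Each tissue was fitted with edgeR 4.0.16 (R 4.3.3; TMM scaling, edgeR's filter on low counts, robust quasi-likelihood), 1 mean per diet and cycle, with p-values adjusted by Benjamini-Hochberg over all genes and a threshold of 0.05; CPM are TMM-scaled, and SE is the log2 difference divided by the root of F. A second fit took the 165 chow libraries over tissues. limma 3.58.1 (voom) and DESeq2 1.42.0 were alternatives, and the fit was tested on simulated data. A library stood apart in quality above 20% mitochondrial counts and above 3 times its tissue's median, at under 0.5 times the median number of detected genes, or with a chromosome of at least 300 genes empty. The replicate number did not meet the rule for pairing, a correlation above 0.1 in every same-numbered pair, and is no term of the fit. Failing a rule that asks this of every pair does not exclude pairing. Promoter windows came from RefSeq (GRCm38.p6) and coding lengths from GENCODE M21, matched by symbol for 61 and 80 members.

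Named members were, by rule, the 6 largest rises and 6 largest falls among those called by diet at a mean of at least 2 CPM, the 3 with the lowest p over the cycles in a tissue, the 2 highest and 2 lowest relative shares in a tissue (mean of at least 10 CPM), and the alternative copies, stalk proteins, Rpsa and Rps6; other names complete a list or were chosen after their values were seen. The members and gene lists were chosen with earlier results of these data known. Some genes are counted but not reported here by name.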

Additional observations from a re-analysis of the deposited data

Results flagged for a closer look

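In groups of 6 liver libraries, single libraries lay far from the other 5 in 39 cases over 200 checks, each of 1 measure in 1 group. The checks reuse the same libraries, and some of the genes were named for their diet difference. The rate of about 1 in 20 that chance gives for a single check is therefore no measure for the 39 cases. Chow LD0/24 replicate 1 had a summed member CPM of 30440, 428.8 CPM of Rpl12 and 246 CPM of Rpl39. Chow LD8/16 replicate 3, LD12/12 replicate 2 and LD24/0 replicate 5, all of high mitochondrial share, stood high for the same 5 large subunit genes. In that order their CPM were 462.7, 607.2 and 435.4 for Rpl21, 858.6, 708.9 and 724.4 for Rpl28, 508.8, 392 and 381.2 for Rpl38, 469.1, 497.5 and 426.1 for Rpl35, and 651.1, 417.6 and 419.9 for Rpl26. The same 3 libraries stood low for Rpl3, at 124, 51.27 and 55.49 CPM, and chow LD16/8 replicate 6 stood high at 350.9 CPM within its narrow group.

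The large to small subunit ratio was 1.855 in LD12/12 replicate 2 and 1.725 in LD24/0 replicate 5. In LD12/12 replicate 2 the values were also low for Rpl10 (236.3 CPM), Rplp2 (44.27 CPM) and Rps6 (177.6 CPM). Both libraries were low for Rps4x (53.73 and 72.61 CPM) and Rplp0 (181.3 and 223 CPM).

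In antibiotics LD0/24 replicate 1 the X-linked Rpl10, Rpl39 and Rps4x were at 0. Among libraries of ordinary mitochondrial share, Rplp0 stood high at 745 CPM in chow LD16/8 replicate 6. In antibiotics LD24/0 replicate 6 both Rplp0 (374.8 CPM) and Rplp1 (293.3 CPM) stood low. Rps27 stood at 203.5 CPM in chow LD24/0 replicate 1, and Rplp2 at 178.1 CPM in antibiotics LD16/8 replicate 5.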

How the results depend on the processing

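With DESeq2, members called were 2 over the cycles in chow liver, 31 in spleen and 1 in antibiotics colon; against LD12/12 (calls summed over the 4 chow contrasts here and below) they were 1 in colon, 1 in cecum and 60 in spleen. It called 37 higher and 1 lower on antibiotics in colon, 20 higher there within a cycle (summed over the cycles) and 1 higher within a cycle in hypothalamus. With limma-voom the diet counts were 14 higher in hypothalamus, 9 higher in colon and 1 within a cycle, and 8 lower within a cycle in liver; mammary gland gave 33 over the cycles and 27 against LD12/12. With no filter on low counts colon gave 6 higher, liver 10 lower within a cycle and mammary gland 1 over the cycles. On values divided by 4, spleen gave 22 against LD12/12.

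Without the libraries of doubtful quality, liver gave 3 lower within a cycle, and colon 6 against LD12/12 and 1 lower on antibiotics. Against the other 9 tissues that setting gave 22 lower in liver, 7 higher in colon, 4 higher and 16 lower in cecum and 2 lower in mammary gland. limma-voom there gave 28 lower in colon (25 without replicate 4), 16 higher and 7 lower in cecum and 3 lower in mammary gland. With mitochondrial rows removed mammary gland gave 0 lower. As shares of non-mitochondrial in place of all counts, the members were 4.94% in chow colon, 6.52% in antibiotics colon and 7.84% in mammary gland, against 2.51%, 3.29% and 1.66% of all counts.

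Leaving out each library in turn gave 0 to 6 members against LD12/12 in colon, 0 to 1 in mammary gland and 0 to 118 in spleen, and 0 to 53 over the cycles in spleen and 0 to 2 in mammary gland. By diet it gave 8 to 36 higher and 0 to 1 lower in colon, 8 to 46 higher in hypothalamus, 0 to 1 higher within a cycle there and 0 to 28 lower within a cycle in liver. Against the other tissues it gave 0 to 6 higher and 9 to 31 lower in colon, 1 to 2 higher in hypothalamus, 1 to 3 higher in inguinal fat, 28 to 57 higher and 2 to 3 lower in mammary gland and 3 to 7 lower in cecum. Apart from these, the counts stayed within 1.5 times. The causes were not tested.

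Without the doubtful libraries the diet difference (log2) changed sign in 11 of 80 members in liver and 3 of 81 in colon, none of them called with all libraries; Rpl3 and Rpl4 were then called lower in liver. Among the members named by rule, sign changes under any setting were those of Rpl3 in liver (-0.14 without doubtful libraries, -0.0048 to 0.063 without 1 library), Rps4x in liver (-0.31 with limma-voom, -0.041 without doubtful libraries), Rplp2 in liver (-0.060 without doubtful libraries, -0.012 to 0.032 without 1 library), Rpl39l in hypothalamus (-0.33 without antibiotics LD12/12 replicate 2) and the near-absent Rpl3l in colon (0.56 with limma-voom, 0.078 on values divided by 4, and -1.64 to 1.05 without 1 library).

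In no tissue did every pair of same-numbered libraries correlate above 0.1 in their deviations from the group means; the median was highest in jejunum (0.10, against -0.057 for other numbers), where 10 of 15 libraries lay closest to their own number (9 of 15 in spleen and in mammary gland). With the replicate number as a block, colon gave 12 members higher in place of 17, and no count within a tissue moved by over 1.5 times. Over tissues the block was run with limma-voom, an alternative chosen after seeing the data, and gave 2 higher and 28 lower in colon, 17 higher in cecum and 3 lower in mammary gland. For the fit over tissues, the unfiltered fit and edgeR's fits with a block and with a library left out were not run; limma-voom took the place of both block and left-out fits. Depth limits mammary gland most (7200822 counts in the shallowest library), groups of 3 libraries limit every tissue but liver, and members sharing reads with pseudogenes are uncertain.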
